A study of Homo sapiens with 9 samples.

Results

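RNA of 9 genes of matrix breakdown was compared in LNCaP:C4-2 cells: the plasminogen activators PLAU and PLAT, the urokinase receptor PLAUR, the matrix metalloproteinases MMP2, MMP7, MMP13, MMP14 and MMP16, and the inhibitor TIMP2. They were taken by name from 60675 genes in the count files. LNCaP:C4-2 is an androgen-independent prostate cancer line used as a model of castrate-resistant disease. They formed 3 groups of 3 libraries each: a non-targeting shRNA (shScramble), shMETTL3 guide 2 and shMETTL3 guide 1. All groups, the controls included, were transduced with lentivirus packaged in HEK293T cells, a human embryonic kidney line, and selected with puromycin. By the study's methods, the shRNAs were carried in a Tet-pLKO-puro construct. They were induced with 1 μg/ml doxycycline for 6 days, although the sample titles name a vehicle. The study's methods call the selected cells stable clones and do not say how many clones each group held. The labels do not say whether the 3 libraries of a group came from separate cultures, so that p-values measure only the spread between these libraries, which may be technical.

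Plasminogen activators cut plasminogen into plasmin, a broad serine protease that degrades fibrin and matrix proteins and activates other proteases. Urokinase (PLAU) does so at the cell surface, bound to its glycolipid-anchored receptor PLAUR, whereas tissue-type activator (PLAT) acts mainly on fibrin and on annexin A2 complexes. Matrix metalloproteinases are zinc enzymes made as inactive precursors. MMP14 and MMP16 are anchored in the membrane, and MMP14 activates the secreted gelatinase MMP2 in a complex in which TIMP2 is the bridging molecule. TIMP2 thus both inhibits metalloproteinases and takes part in the activation of one of them.

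Total counts were 21899501 to 30897639 per library, and 19278 genes passed the filter on low counts. METTL3 was at 31.5 ± 1.59 counts per 1000000 (CPM; mean ± SD, n = 3) in shScramble, 16.3 ± 0.423 in guide 2 and 29.7 ± 0.378 in the libraries labelled guide 1. It was called lower in guide 2 (log2 fold change −0.95, SE 0.0687, adjusted p = 2.97e-12) and not in the libraries labelled guide 1 (−0.08, SE 0.0633, adjusted p = 0.251). The latter are therefore named by their label, and no direction seen in them can be tied to a loss of METTL3 RNA. A list of 6 genes known for their expression in HEK293T (LIN28B, IGF2BP1, HMGA2, NEFM, NEFL and INA) also separated the groups. All 6 were above 3 counts in at least 1 shScramble library, so the list is not at 0 in the control cells. Its summed level was 27.9 to 31.5 CPM in shScramble, 3.11 to 4.86 in guide 2, where NEFM had 3 counts or fewer in each library, and 310.7 to 325.4 in the libraries labelled guide 1. All 6 were called lower in guide 2 and higher in the libraries labelled guide 1. The 6 luminal prostate markers KRT8, KRT18, EPCAM, CDH1, HOXB13 and FOLH1 were present in every library and summed to 3011 to 3116, 3120 to 3320 and 1569 to 1634 CPM in the same order. Of the 5 basal markers, KRT5 and TP63 were at 0 counts in all libraries, and the list summed to 0.283 to 0.657, 0.0907 to 0.439 and 1.48 to 2.28 CPM. This was mostly CD44 (0.464, 0.124 and 1.8 CPM on average), with KRT14 and KRT15 at means of 0.0664 CPM or less. The 7 fibroblast markers summed to 67.1 to 69.1, 40.9 to 44.1 and 153.8 to 188.8 CPM, mostly through VIM (23.1, 3.56 and 153 CPM on average) and COL1A1 (43.4, 35.3 and 21.1), with DCN at 0 counts throughout. The 5 leukocyte markers summed to 0.239 to 0.789 CPM over all libraries, and the 4 endothelial markers, with PECAM1 at 0 counts, to 0.667 to 3.49.

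A gene was called at an adjusted p under 0.05 over all genes tested and a fold change of at least 1.5. Of the 9 genes, 8 passed the filter on low counts. MMP7 did not, and PLAU passed only through the libraries labelled guide 1, so that it had to differ from them in the other groups. With guide 2, 1 gene was called higher than in shScramble (TIMP2) and 3 lower (PLAU, PLAT and MMP2). Over all genes, 8.85% were called higher and 20.4% lower in this comparison. In the libraries labelled guide 1, 5 genes were called higher (PLAU, PLAUR, PLAT, MMP2 and MMP14) and 2 lower (MMP13 and MMP16), against 21.2% and 16.5% of all genes. Between guide 2 and guide 1, 3 genes were called higher in guide 2 and 5 lower, against 19.1% and 28.2% of all genes. Without PLAU, 1 of 7 genes was called higher and 2 lower with guide 2. The libraries labelled guide 1 then had 4 higher and 2 lower. Between the guides, 3 were then higher and 4 lower in guide 2. The median log2 fold change of the 8 genes was −0.34 for guide 2 against shScramble, 1.97 for guide 1 against shScramble and −2.11 between guide 2 and guide 1, beside −0.04, −0.02 and −0.06 for all genes tested. The medians of both comparisons with guide 1 include PLAU, whose direction in them was set by the filter. With genes at the floor of 3 counts set to their bound, the medians with guide 2 and between the guides were −0.14 and −2.03. In the former, PLAU was set to no change although it was called lower, because its shScramble mean was under the floor too. When libraries were scaled by their size alone, 1012 genes were called higher and 4865 lower with guide 2, in place of 1706 and 3939, and the median of all genes moved from −0.04 to −0.19. Under that scaling, 4, 7 and 8 of the genes were called in the 3 comparisons, as in the main test.

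**Figure D1:**
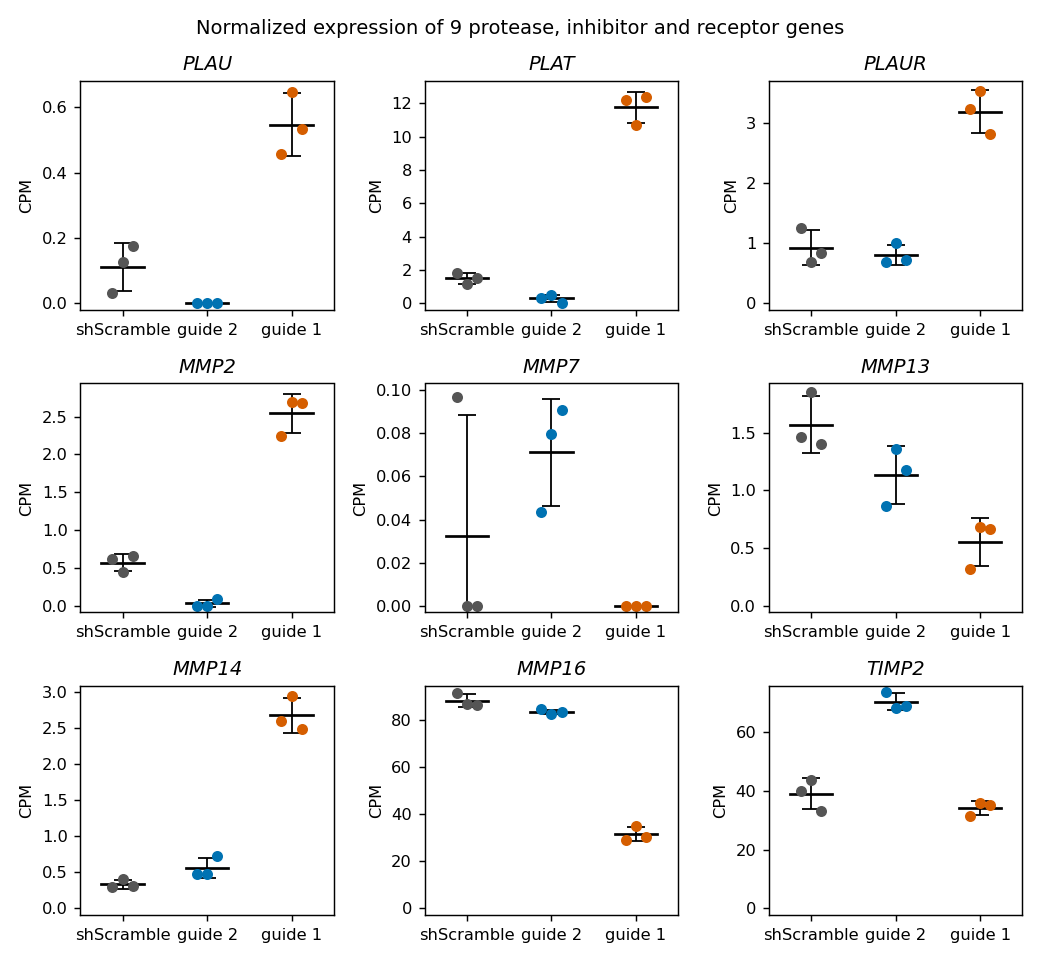
CPM (TMM-scaled) of each gene in each of 9 libraries, with points for libraries, horizontal lines for the mean and bars for the SD of 3 libraries. PLAT, MMP2, PLAU, PLAUR and MMP14 were highest in the libraries labelled guide 1, MMP16 and MMP13 were lowest there, and TIMP2 was highest with guide 2. The vertical scales differ between panels.

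Of the 2 plasminogen activators, PLAT was the more abundant per exon length and differed between all groups. PLAT (tissue-type plasminogen activator, ENSG00000104368) spans 42175233 to 42207724 of chromosome 8 (GRCh38, minus strand) by the coordinates in the files. Its counts were 56, 37 and 35 in shScramble, 8, 12 and 1 in guide 2, and 347, 297 and 370 in the libraries labelled guide 1. The 3 groups did not overlap. The means were 1.5 ± 0.326, 0.29 ± 0.222 and 11.8 ± 0.922 CPM (SD, n = 3 each). PLAT was 4.95-fold lower in guide 2 than in shScramble (log2 fold change −2.31, SE 0.352, adjusted p = 2.93e-06) and rose by 2.97 on the log2 scale in the libraries labelled guide 1 (SE 0.179, adjusted p = 4.23e-14). The single count in guide 2 replicate 3 set much of the spread: without that library the log2 fold change with guide 2 was −1.84, and the call remained.

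PLAU (urokinase, ENSG00000122861; chromosome 10, plus strand, 73909177 to 73917497) was near the limit of detection in the control cells. It had 1, 4 and 4 counts in shScramble, 0 in all 3 guide 2 libraries, and 13, 18 and 16 in the libraries labelled guide 1. The groups did not overlap, although only 9 counts stood behind the shScramble level. PLAU was called lower in guide 2 than in shScramble (adjusted p = 0.0137). No fold is given for that call because the shScramble mean of 0.111 CPM lay under the floor of 0.129 CPM that 3 counts per library represent. By counting error alone, 0 against 9 counts set the ratio of shScramble to guide 2 at 1.62 or more (95% exact interval). PLAU was 0.547 ± 0.0963 CPM in the libraries labelled guide 1 and was called higher there than in shScramble (adjusted p = 0.000681), with a ratio of scaled counts of 5.19 from 47 against 9 counts (counting interval 2.51 to 12). There it was at least 4.25-fold higher than in guide 2 (adjusted p = 3.92e-06). PLAU passed the filter on low counts only through the libraries labelled guide 1. It therefore had to differ there, and the p-values of these 2 comparisons add no support. Exons of the antisense gene C10orf55 cover 31.1% of the exon bases of PLAU. C10orf55 itself had 2 counts over all libraries.

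PLAUR, the urokinase receptor (ENSG00000011422; chromosome 19, minus strand, 43646095 to 43670547), had a higher level per exon length than its ligand in every library. Its counts were 39, 22 and 19 in shScramble, 16, 25 and 16 in guide 2, and 92, 98 and 84 in the libraries labelled guide 1. The shScramble and guide 2 ranges overlapped, and both lay below those labelled guide 1. PLAUR rose by 1.77 on the log2 scale in the libraries labelled guide 1 (SE 0.236, adjusted p = 1.81e-07), from 0.928 ± 0.297 to 3.19 ± 0.361 CPM. With guide 2 the log2 fold change was −0.20 (95% interval −0.79 to 0.38, adjusted p = 0.57), and without shScramble replicate 1 it was 0.11. PLAUR thus did not follow PLAT and PLAU down in guide 2 at a detectable size. Its decrease by 1.97 from guide 1 to guide 2 was called (SE 0.251, adjusted p = 6.16e-08). Scaled for exon length, the ratio of PLAT to PLAUR within a library was 0.967, 1.13 and 1.24 in shScramble, 0.337, 0.323 and 0.0421 in guide 2, and 2.54, 2.04 and 2.97 in the libraries labelled guide 1. The ratio did not overlap between groups.

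Around these activators, 14 genes of plasminogen activation were listed, and 9 passed the filter. With guide 2, 1 was called higher and 3 lower, against 8.85% and 20.4% of all genes. In the libraries labelled guide 1, 5 were called higher and 1 lower, against 21.2% and 16.5% of all genes. Of the 5, VTN (vitronectin) passed the filter only through the libraries labelled guide 1 and had to differ there, and without it 4 of 8 were higher. It was named after its value was seen. ANXA2, the annexin that binds PLAT and plasminogen at the cell surface, fell from 5.2 ± 0.355 CPM in shScramble to 0.699 ± 0.127 in guide 2 (log2 fold change −2.88, SE 0.184, adjusted p = 2.17e-13). In the libraries labelled guide 1 it was at 39.1 ± 3.71 CPM (2.91, SE 0.0941, adjusted p = 1.72e-20). Its partner S100A10, a plasminogen receptor, fell by 2.24 with guide 2 and rose by 2.38 in the libraries labelled guide 1. SERPINE2, an inhibitor of urokinase and thrombin, fell by 1.40 and rose by 2.00, so that an inhibitor of urokinase had the directions of PLAT. The gene called higher with guide 2 was SERPINI1 (neuroserpin, an inhibitor of PLAT), at 2.19 ± 0.317 CPM in shScramble and 5.11 ± 0.751 in guide 2. It was also called higher in the libraries labelled guide 1, at 3.77 ± 0.953 CPM (log2 fold change 0.77, adjusted p = 0.000784), was not called between the guides, and was named after its value was seen. The substrate gene PLG had 0 or 1 count in each library.

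MMP2 and MMP14 both rose in the libraries labelled guide 1, and only MMP2 was called with guide 2. MMP2 (gelatinase A, ENSG00000087245; chromosome 16, plus strand, 55389700 to 55506691) had 19, 14 and 15 counts in shScramble, 0, 0 and 2 in guide 2, and 64, 75 and 80 in the libraries labelled guide 1. The groups did not overlap. MMP2 was called lower in guide 2 (adjusted p = 9.09e-06). From 2 against 48 counts, the ratio of shScramble to guide 2 was 19.7 by scaled counts, with a counting interval of 5.16 to 167. Both counts of guide 2 came from replicate 3, without which guide 2 had 0 counts and the fitted log2 fold change went from −4.10 to −6.97, a size that then depends on the prior count. MMP2 rose by 2.16 on the log2 scale in the libraries labelled guide 1 (SE 0.283, adjusted p = 1.24e-07), from 0.57 ± 0.115 to 2.54 ± 0.255 CPM.

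MMP14 (membrane type 1 metalloproteinase, ENSG00000157227; chromosome 14, plus strand, 22836557 to 22849027) had 9, 13 and 7 counts in shScramble, 11, 12 and 16 in guide 2, and 74, 82 and 74 in the libraries labelled guide 1. In CPM, the guide 2 libraries (0.477, 0.478 and 0.725) lay above the shScramble libraries (0.291, 0.408 and 0.307) without overlap. The difference did not pass the test (log2 fold change 0.71, SE 0.371, 95% interval −0.02 to 1.44, adjusted p = 0.0981), and the exact two-sided permutation p was 0.1, the smallest that 3 against 3 libraries allow. The same p was found for every other pair of groups without overlap among the 8 genes. MMP14 rose by 2.96 in the libraries labelled guide 1 (SE 0.281, adjusted p = 2.96e-10), to 2.68 ± 0.247 CPM. The activating enzyme MMP14 and its substrate MMP2 thus shared their direction in the libraries labelled guide 1, whereas with guide 2 MMP2 was called lower and MMP14 was not called.

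MMP16 (membrane type 3 metalloproteinase, ENSG00000156103; chromosome 8, minus strand, 88032009 to 88328025) was the highest of the 5 metalloproteinases in the set, which does not include MMP15. Its counts were 2821, 2767 and 1975 in shScramble, 1949, 2074 and 1838 in guide 2, and 831, 967 and 909 in the libraries labelled guide 1. In CPM the shScramble libraries (91.3, 86.9 and 86.5) and guide 2 libraries (84.5, 82.7 and 83.3) lay close together without overlapping, and the log2 fold change of −0.08 was not called (SE 0.0536, 95% interval −0.19 to 0.02, adjusted p = 0.197). The libraries labelled guide 1 stood apart at 29.2, 34.8 and 30.4 CPM, where MMP16 fell by 1.49 on the log2 scale (SE 0.0569, adjusted p = 7.43e-19). With exon length taken into account, MMP16 made up 89.6 to 91.1% of the summed level of the 5 metalloproteinases in shScramble, 91.5 to 94.2% in guide 2 and 65.3 to 67.7% in the libraries labelled guide 1. The share of MMP14 was 0.788 to 1.14%, 1.44 to 2.16% and 14.4 to 16.4% in the same order.

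The 2 remaining enzymes were MMP13, at 59 counts or fewer in each library, and MMP7, at 3 or fewer. MMP13 (collagenase 3, ENSG00000137745; chromosome 11, minus strand, 102942995 to 102955734) had 45, 59 and 32 counts in shScramble, 20, 34 and 26 in guide 2, and 9, 19 and 20 in the libraries labelled guide 1. It fell in the libraries labelled guide 1 from 1.57 ± 0.246 to 0.556 ± 0.208 CPM (log2 fold change −1.50, SE 0.301, adjusted p = 7.91e-05). With guide 2 its mean was 1.13 ± 0.247 CPM, with all 3 libraries below the shScramble range, and the difference was not called (−0.47, SE 0.277, adjusted p = 0.14). MMP7 (matrilysin, ENSG00000137673; chromosome 11, minus strand, 102520508 to 102530753) had 3, 0 and 0 counts in shScramble, 1, 2 and 2 in guide 2, and 0 in each library labelled guide 1. These counts were at or under 3 in every library, and MMP7 was not tested. The 5 counts of guide 2 and the 0 counts of guide 1 did not overlap by library (exact two-sided permutation p = 0.1, the smallest possible), and by counting error alone their ratio was 1.12 or more. The counting intervals of both comparisons with shScramble included equal levels.

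RefSeq promoter windows (GRCh38.p14) were matched to 4 of the 9 genes, PLAU, PLAUR, MMP7 and MMP14, and not to PLAT, MMP2, MMP13, MMP16 and TIMP2. The 250 bases before the start site are shown for PLAUR and MMP14, which rose together in the libraries labelled guide 1, and for MMP7, which was not expressed above the floor. Capitals mark matches to the AP-1 motif TGANTCA, searched on both strands. The windows are chr19:43670170-43670419 (minus strand) for PLAUR, chr14:22836335-22836584 (plus strand) for MMP14 and chr11:102530748-102530997 (minus strand) for MMP7.
PLAUR: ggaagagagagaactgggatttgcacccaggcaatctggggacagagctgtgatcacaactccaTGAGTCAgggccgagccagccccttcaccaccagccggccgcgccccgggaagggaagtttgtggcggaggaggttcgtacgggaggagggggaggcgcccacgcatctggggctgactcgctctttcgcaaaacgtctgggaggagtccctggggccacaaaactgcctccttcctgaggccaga
MMP14: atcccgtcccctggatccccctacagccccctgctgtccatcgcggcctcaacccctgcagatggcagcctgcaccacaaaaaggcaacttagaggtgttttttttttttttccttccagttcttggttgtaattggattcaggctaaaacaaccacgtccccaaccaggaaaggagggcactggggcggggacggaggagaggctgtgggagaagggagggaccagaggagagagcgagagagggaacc
MMP7: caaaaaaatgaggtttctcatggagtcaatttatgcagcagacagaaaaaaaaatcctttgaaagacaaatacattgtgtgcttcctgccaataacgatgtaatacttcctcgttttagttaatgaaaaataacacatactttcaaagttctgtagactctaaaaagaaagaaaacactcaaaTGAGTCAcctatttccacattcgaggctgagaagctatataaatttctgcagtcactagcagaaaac

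The motif matched once in PLAUR, starting 186 bases before the start site, and once in MMP7, 67 bases before it. It was found in 6.57% of all 35116 promoter windows of this length, and there was no match in the windows of PLAU and MMP14. The GC box GGGCGG, searched on both strands, matched once in MMP14 and in none of the other windows, and in 42.6% of all promoters. The letters TATAAA matched once in MMP7 and in 10.7% of all promoters. The GC content was 63.2% for PLAUR, 56.8% for MMP14, 46.8% for PLAU and 33.6% for MMP7, beside a median of 58% over all promoters. The AP-1 letters were thus present in the window of a gene that rose (PLAUR) and of a gene at the floor (MMP7), and no match was found for 2 genes that rose (PLAU and MMP14). A match is a description of the sequence only. The windows of PLAUR and PLAU lie inside the gene models of the count files, downstream of the outermost start. Their matches thus concern the RefSeq start alone.

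TIMP2, which inhibits metalloproteinases and bridges MMP14 and pro-MMP2, was the only gene of the set called higher with guide 2. TIMP2 (ENSG00000035862; chromosome 17, minus strand, 78852977 to 78925387) had 1241, 1394 and 761 counts in shScramble, 1701, 1715 and 1524 in guide 2, and 893, 1001 and 1052 in the libraries labelled guide 1. In CPM it was 40.1, 43.8 and 33.3 in shScramble, 73.7, 68.4 and 69.1 in guide 2, and 31.4, 36 and 35.2 in the libraries labelled guide 1. The guide 2 libraries lay above all others, and the other two groups overlapped. TIMP2 rose by 0.84 on the log2 scale with guide 2 (SE 0.0759, adjusted p = 7.84e-09). In the libraries labelled guide 1 its log2 fold change of −0.20 had an adjusted p of 0.0296 (SE 0.0784) but was smaller than the 1.5-fold limit, and it was not called. About 10% of the exon bases of TIMP2 are shared with neighbouring gene models, among them CEP295NL, which summed to 44, 32 and 17 counts in shScramble, guide 2 and guide 1.

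The length-scaled ratio of TIMP2 to MMP16 was 0.946, 1.08 and 0.829 in shScramble, 1.88, 1.78 and 1.78 in guide 2, and 2.31, 2.23 and 2.49 in the libraries labelled guide 1. It was above the shScramble range in both, with TIMP2 higher in guide 2 and MMP16 lower in the libraries labelled guide 1. The ratio of TIMP2 to MMP14 went otherwise. It was 109, 85 and 86.2 in shScramble and 123, 113 and 75.5 in guide 2, which overlapped, and 9.56, 9.67 and 11.3 in the libraries labelled guide 1.

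**Figure D2:**
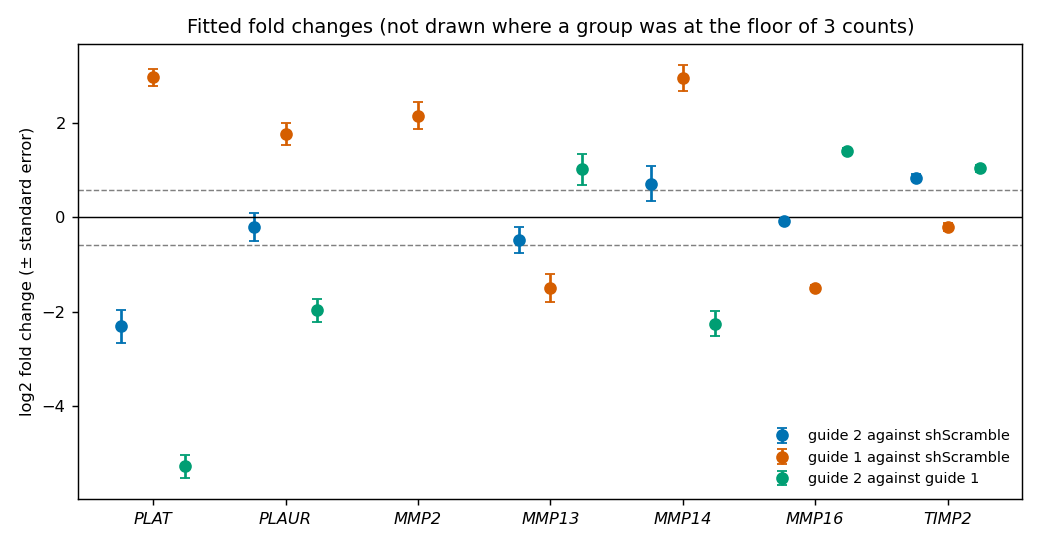
Log2 fold change (y axis; points are estimates from edgeR's quasi-likelihood fit, bars 1 standard error) of 7 tested genes in 3 comparisons, with dashed lines at the 1.5-fold limit. PLAT was lower in guide 2 (−2.31) and higher in the libraries labelled guide 1 (2.97), and TIMP2 was higher in guide 2 (0.84). PLAU is left out of all comparisons for its low counts. The guide 2 values of MMP2 are not drawn because guide 2 was at or under the floor.

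Levels of different genes were compared as reads per kilobase of exon and 1000000 counts (RPKM). In shScramble, MMP16 (7.28 RPKM) and TIMP2 (6.94) had overlapping ranges and stood above MMP13 (0.554). PLAT (0.227) and PLAUR (0.208) followed with overlapping ranges, then MMP2 (0.116) and MMP14 (0.0751), also overlapping, and last PLAU (0.0376) and MMP7 (0.0139). In guide 2, TIMP2 (12.5) and MMP16 (6.89) no longer overlapped, MMP13 (0.4) came next, and PLAT (0.0438) came after PLAUR (0.181) and MMP14 (0.125). In the libraries labelled guide 1, TIMP2 (6.07) and MMP16 (2.6) were followed by PLAT (1.78), PLAUR (0.716) and MMP14 (0.599), of which the last 2 overlapped, then MMP2 (0.515), while MMP13 (0.196) and PLAU (0.185) overlapped. MMP16 and TIMP2 took the first 2 places in each group.

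The HEK293T gene list moved in parallel with several of these genes, and its values are given beside them. Like the genes of that list, ANXA2, S100A10, SERPINE2, TIMP1, PCSK5 and MMP17 were called lower with guide 2 and higher in the libraries labelled guide 1. ST14, DPP4 and MMP15 were called in the opposite directions. PLAT amounted to 3.93 to 6.5 CPM per 100 CPM of that list in shScramble, 1.03 to 15.4 in guide 2 and 3.35 to 3.92 in the libraries labelled guide 1, so that guide 2 overlapped both other groups, which lay next to each other without overlap. MMP2 amounted to 1.49 to 2.2, 0 to 2.06 and 0.723 to 0.846 CPM per 100 CPM of the list. PLAU amounted to 0.116 to 0.557, 0 in each library and 0.147 to 0.203, so that shScramble and the libraries labelled guide 1 overlapped. PLAUR amounted to 2.34 to 4.52, 14.3 to 32.1 and 0.863 to 1.11, and MMP14 to 0.975 to 1.38, 9.82 to 16.5 and 0.761 to 0.925. For MMP13, MMP16 and TIMP2 the luminal list was used. Per 1000 CPM of it, MMP13 was at 0.466 to 0.594, 0.27 to 0.434 and 0.201 to 0.423 in the same order of groups. On this scale the shMETTL3 groups overlapped each other and lay below shScramble. Per 1000 CPM of luminal markers, MMP16 was at 27.9 to 29.6 in shScramble, 25.1 to 26.5 in guide 2 and 18.6 to 21.6 in the libraries labelled guide 1, which still did not overlap. TIMP2 was at 11.1 to 14, 20.8 to 23 and 20 to 22.3, so that on this scale both shMETTL3 groups lay above shScramble. The luminal list itself summed to 1569 to 1634 CPM in the libraries labelled guide 1 and 3011 to 3116 in shScramble. TIMP2 was not called between these groups (log2 fold change −0.20). Per 100 CPM of the HEK293T list it was at 10.1 to 11.3 in the libraries labelled guide 1 and 106 to 148 in shScramble. In bulk RNA, fewer cells of a type and less RNA per cell cannot be told apart, and the part of other cells in these results was not tested.

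**Figure D3:**
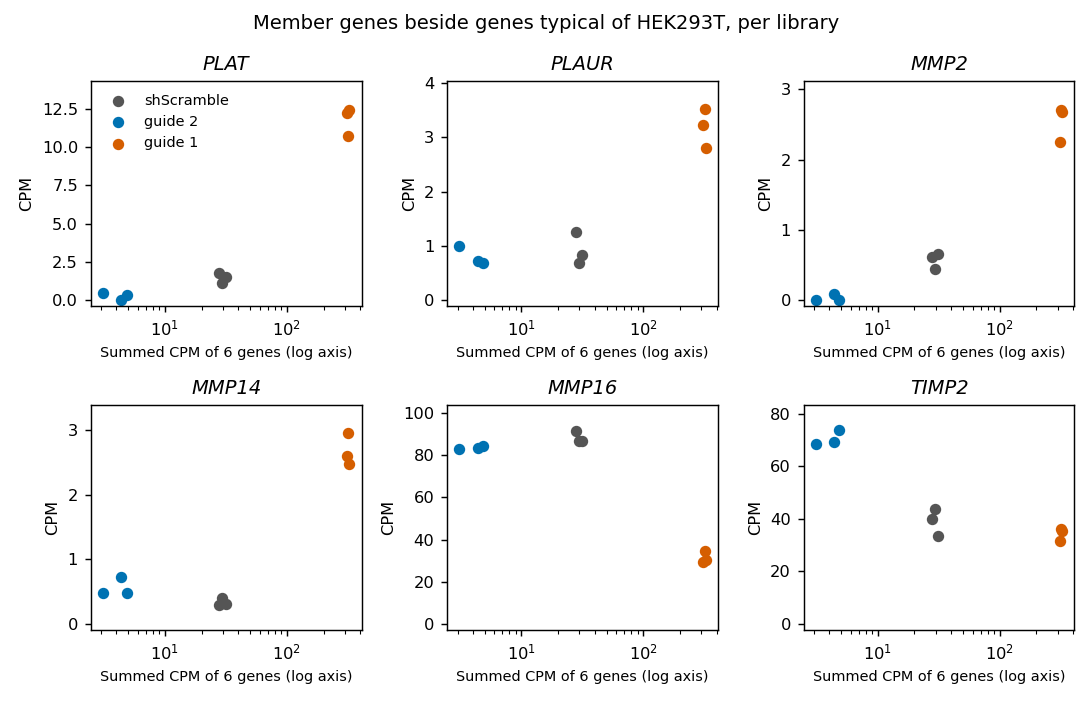
CPM of 6 genes (y axes) against the summed CPM of LIN28B, IGF2BP1, HMGA2, NEFM, NEFL and INA (x axis, logarithmic), with a point for each library. The libraries form 3 separate clusters, with guide 2 at 3.11 to 4.86 and guide 1 at 310.7 to 325.4 CPM of the list. PLAT and MMP2 were ordered as the list was, TIMP2 and MMP16 were not.

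Other matrix metalloproteinases were few: of 18 listed, 5 passed the filter. MMP15 (membrane type 2 metalloproteinase) was at 225 ± 17.5 CPM in shScramble and rose to 354 ± 13.8 with guide 2 (log2 fold change 0.66, SE 0.0549, adjusted p = 1.75e-10). It fell by 0.76 in the libraries labelled guide 1, to 133 CPM. In each group the mean CPM of MMP15 was above that of MMP16 (88.2, 83.5 and 31.5 in shScramble, guide 2 and guide 1). MMP17, anchored by a glycolipid, fell by 2.24 with guide 2 and rose by 1.28 in the libraries labelled guide 1, the directions of MMP2. MMP25 fell by 0.78 with guide 2 and was not called in the libraries labelled guide 1 (−0.51, adjusted p = 0.0799). The interstitial collagenase MMP1 was at 0 counts in every library and the gelatinase MMP9 had 0 to 6, both named for their low counts.

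Of 10 listed inhibitors and activators of metalloproteinases, 8 passed the filter. With guide 2, 1 was called higher and 3 lower, against 8.85% and 20.4% of all genes. In the libraries labelled guide 1, 5 were called higher and 0 lower by edgeR, against 21.2% and 16.5% of all genes. There, 0 were lower at an unadjusted p under 0.05, and 0 were called lower by DESeq2. TIMP1, the paralog of TIMP2, fell from 4.12 ± 0.793 CPM to 0.852 ± 0.29 with guide 2 (log2 fold change −2.29, SE 0.247, adjusted p = 8.52e-08) and was at 24.5 ± 3.83 CPM in the libraries labelled guide 1 (2.56, SE 0.14, adjusted p = 8.94e-13). TIMP1 and TIMP2 were therefore called in opposite directions with guide 2. PCSK5, a proprotein convertase, fell by 2.26 and rose by 2.80. BSG (basigin, an inducer of metalloproteinases) rose by 0.66 with guide 2, from 444 ± 8.95 to 700 ± 34.8 CPM.

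Of 11 listed pericellular serine proteases and their inhibitors, 10 passed the filter, of which 2 were called higher and 1 lower with guide 2, and 0 higher and 8 lower in the libraries labelled guide 1 by edgeR (0 higher at an unadjusted p under 0.05 and 0 called higher by DESeq2). Over all genes, 21.2% were called higher and 16.5% lower in the libraries labelled guide 1, and 8.85% higher and 20.4% lower with guide 2. DPP4, a membrane dipeptidyl peptidase, rose by 1.86 with guide 2, from 8.67 ± 0.605 to 31.5 ± 0.838 CPM, and fell by 0.71 in the libraries labelled guide 1. ST14 (matriptase, which activates pro-urokinase) rose by 0.72 with guide 2, from 158 ± 8.79 to 260 ± 9.95 CPM, and fell by 1.00 in the libraries labelled guide 1. ST14 was thus at its highest in guide 2, where its substrate gene PLAU was at 0 counts. Among ADAM and ADAMTS proteases, 10 of 13 passed the filter, with 1 higher and 3 lower in guide 2 and 2 higher and 2 lower in the libraries labelled guide 1. The shares of all genes given above stand beside these counts too. ADAMTS9, called lower in guide 2 and higher in the libraries labelled guide 1, passed the filter only through the latter and had to differ there, and it was named after its value was seen. Without ADAMTS9, 1 of 9 genes was higher and 2 lower in guide 2. The libraries labelled guide 1 then had 1 higher and 2 lower. The sheddase ADAM17 fell by 0.63 and ADAM9 rose by 0.63 with guide 2. Among cathepsins and cystatins, 9 of 11 passed the filter, and 2 were called higher with guide 2, against 8.85% of all genes. These were CTSV (by 1.11) and CTSH (by 0.68), both lysosomal cysteine proteases. In the libraries labelled guide 1, 3 of these 9 genes were called lower, against 16.5% of all genes.

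**Figure D4:**
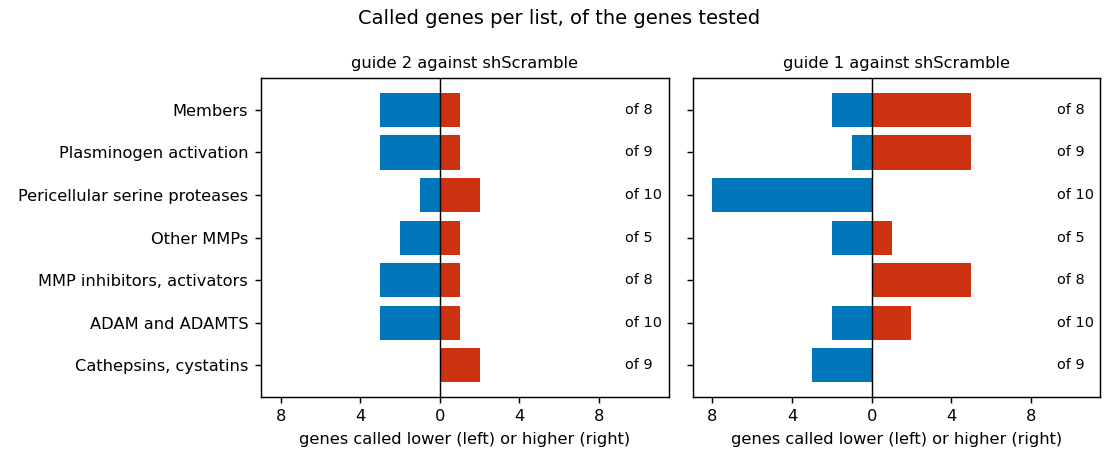
Genes called lower (bars to the left) or higher (bars to the right) in each list, with the number of genes tested at the right, for guide 2 (left panel) and guide 1 (right panel) against shScramble. Of 10 pericellular serine proteases, 8 were lower in the libraries labelled guide 1, against 16.5% of all genes. There, 5 of 9 plasminogen activation genes were higher, against 21.2% of all genes. VTN, 1 of the 5, passed the filter only through the libraries labelled guide 1 and had to differ there. Without it, 4 of 8 were higher. The bars also include PLAU (members) and ADAMTS9, for which the same holds.

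Genes with the most similar pattern were sought by the Pearson correlation of log2 CPM over the 9 libraries, as a description. These values rest on 3 clusters of libraries. PGAP4 (r = 0.998) and MOXD1 (0.994) were nearest to PLAT, SEC31A (0.996) and ZEB2 (0.996) to MMP2, INTU (0.989) and CYBRD1 (0.989) to PLAU, and CAMKV (0.991) and ZCCHC18 (0.988) to PLAUR. For MMP14 they were EYA2 (0.995) and DDB1 (0.993), and for MMP13 IQGAP1 (0.986) and LINC01114 (0.979). MMP16 was nearest to GSK3B (0.999) and SYTL1 (0.998), and TIMP2 to TOB2 (0.994) and POLG (0.991). The sizes of change differed within these pairs: ZEB2 was at 2.48, 0.0737 and 20.7 CPM in shScramble, guide 2 and guide 1, whereas SEC31A was at 145, 107 and 177.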

How the data were processed

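Per the labels, total RNA of LNCaP:C4-2 cells was sequenced in 3 groups of 3 libraries. The authors trimmed adapters, aligned reads to GRCh38 (Ensembl annotation) with STAR and counted them with featureCounts, and deposited raw read counts per gene. The submitters' processing notes also name Trim Galore, cutadapt and FastQC. The strand setting is not given in the sources used here, so reads of antisense partners cannot be told apart.

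Total counts were 21899501 to 30897639 per library, and 3 counts equal 0.0971 to 0.137 CPM before TMM scaling. Symbols from a later annotation were matched to 93.2% of the gene identifiers. Counts were scaled by TMM and filtered with filterByExpr (minimum count 10, minimum total 15). Testing used edgeR's robust quasi-likelihood F test (edgeR 4.0.16, R 4.3.3) over all 9 libraries with a coefficient per group and Benjamini-Hochberg adjustment over 19278 genes. CPM are TMM-scaled, and RPKM use the exon length in the files. Intervals of fold changes are normal intervals of 95%, and count ratios have exact binomial intervals, which cover counting error only. The procedure was tested on simulated counts. Chi-square tests found no duplicated library.

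The members and gene lists were chosen with earlier results of these data known. Some genes of these lists are not reported here and were left out of every list value. Named genes are the members, up to 3 called genes per list with the largest guide 2 change at a mean of at least 1 CPM, the 2 genes most correlated with each member among those with a mean of at least 1 CPM, METTL3 and the marker lists. SERPINI1, VTN, ADAMTS9, PLG, MMP1 and MMP9 were named after their values were seen. Alternatives were DESeq2 1.42.0, other scalings, filters, call rules and libraries.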

Additional observations from a re-analysis of the deposited data

Results flagged for a closer look

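The effects of the 2 shMETTL3 groups against the same shScramble libraries differed, by the direct test of guide 2 against guide 1, for all 8 genes tested, of which PLAU passed the filter on low counts only through the libraries labelled guide 1 and had to differ. Of these, 5 were lower in guide 2. The log2 fold change was −5.28 for PLAT (SE 0.251, adjusted p = 1.47e-16), −2.25 for MMP14 (SE 0.268, adjusted p = 1.71e-08) and −1.97 for PLAUR. MMP2 was 89.2-fold higher in the libraries labelled guide 1 by scaled counts (2 against 219 counts, counting interval 24.4 to 741). PLAU, at 0 counts in guide 2, was at least 4.25-fold higher there. The remaining genes were higher in guide 2, by a log2 fold change of 1.41 for MMP16 (SE 0.0574, adjusted p = 1.82e-18), 1.04 for TIMP2 (SE 0.0767, adjusted p = 1.2e-10) and 1.02 for MMP13 (SE 0.324, adjusted p = 0.00595). Over all genes, 19.1% were called higher and 28.2% lower in guide 2. The libraries labelled guide 1 had METTL3 at 1.06-fold below shScramble, which was not called, and a high HEK293T gene list, and the part of either in these differences was not tested.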

How the results depend on the processing

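Of 332 single-gene values recomputed under the alternatives other than the adjusted p alone, 330 kept their direction and side of the threshold. PLAUR with guide 2 turned from −0.20 to 0.11 without shScramble replicate 1 (range −0.40 to 0.11 with 1 library left out), and MMP13 between the guides was no longer called by glmTreat (log2 fold change 1.02, adjusted p = 0.0767). Without guide 2 replicate 3, guide 2 had no MMP2 count, so that its fitted change (−6.97 in place of −4.10 against shScramble, −9.13 in place of −6.26 against guide 1) is no estimate of size. PLAU was not tested with a mean of at least 1 CPM, nor for guide 2 with only the 6 libraries compared, which gave 3 called genes in place of 4. The members called stayed at 4, 7 and 8 with any 1 library left out. By the adjusted p alone they were 4, 8 and 8, because TIMP2 was then called lower in the libraries labelled guide 1 (adjusted p = 0.0296). Over all genes, the adjusted p alone called 11910 (guide 2), 13188 (guide 1) and 14386 (between guides), in place of 5645, 7265 and 9125, and glmTreat called 3261 with guide 2. Leaving out 1 library gave 5199 to 5508, 6943 to 7117 and 8839 to 9036. Replicate numbers did not pair the libraries (correlations of deviations −0.0981 to 0.0529). A replicate block left 4, 7 and 8 members called, with 5494 genes for guide 2 and 7140 for guide 1. Depth limits PLAU, MMP2 and MMP7, and with at most 16 counts per library in shScramble and guide 2 also MMP14.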
